A study of Macaca mulatta with 9 samples.

Results

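The mitochondrial ribosomal proteins were taken as the probe sets whose array annotation gives exactly 1 gene symbol that begins with MRPL or MRPS and a digit. The rule found 97 of the 52865 probe sets of the deposited table, for 62 of the 14132 genes that such single-symbol probe sets name. By the place of the protein in the mammalian mitochondrial ribosome, 42 of these genes belong to the large subunit and 20 to the small subunit. MRPS30 and MRPS18A carry small-subunit names, but their proteins sit in the large subunit and were counted there. For 38 genes there was 1 probe set and for 24 there were several, up to 5 for MRPL44. A further probe set, annotated with MRPS22 together with another symbol, was left out, and MRPL3 had no probe set under the rule.

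Mitochondrial ribosomes translate the few proteins that mitochondrial DNA encodes, all of them subunits of the respiratory chain and ATP synthase. Their RNA comes from mitochondrial DNA, whereas every one of their proteins is encoded in the nucleus and imported; some descend from bacterial ribosomal proteins and others are found only in mitochondria. Granulosa cells that proliferate and oocytes that grow both depend on mitochondria, and inherited variants in several of these genes, among them MRPS22, MRPS7 and MRPL50, have been tied to ovarian insufficiency.

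The samples were small antral follicles (SAFs), ovarian follicles with an early fluid-filled cavity, from young adult female rhesus macaques in the early follicular phase. The 9 arrays fell into 3 groups of 3. Controls ate a normal diet. WSD females ate a western-style diet, and WSD+T females ate the same western-style diet while their androgen level was kept chronically high (labelled chronic T). Raised androgen on the normal diet was not analysed here, so androgen was compared only on top of the western-style diet. SAFs judged healthy by eye were pooled by female and ovary (3.7 ± 0.3 per ovary, 3 ovaries per group, the kind of error not stated) and lysed whole, which put granulosa cells, follicle wall, cumulus cells and oocyte into 1 RNA sample. The labels call the arrays of a group biological replicates and do not say whether its 3 ovaries came from 3 females, so p values measure the spread between these arrays. In such samples fewer cells of a type and less RNA per cell cannot be told apart.

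Some arrays stood apart from the others of their group. The lowest median signal of an array was 15.9, on WSD replicate 3, and the highest 23.7, on control replicate 3. Of the granulosa markers listed, 8 of 11 had a probe set and all 8 were tested, and of the oocyte markers 7 of 10 had one and 6 were tested. ZP3, a protein of the egg coat, gave 152 to 297 on the control arrays, 143 to 365 on WSD and 416 to 517 on WSD+T. ZP4, also an oocyte marker, gave 293 to 532, 728 to 868 and 287 to 478 in the same order. The mean level of the 6 tested oocyte markers, in log2 units around the mean of all arrays, was 0.04, -0.23 and -0.85 in control, 0.13, 0.16 and -0.59 in WSD, and 0.33, 0.42 and 0.58 in WSD+T. The part of oocytes in the values below was not tested. Of 14 macrophage and myeloid markers, 12 were tested. Their mean level, in log2 units around the mean of all arrays, was 0.14, -1.83 and -1.58 on the control arrays, 0.96, 1.80 and -2.62 on the WSD arrays, and 1.16, 0.87 and 1.10 on the WSD+T arrays. None of the 12 was at 0 on any array, and the lowest signal was 6.34 (FCGR3, on WSD replicate 3). The WSD+T arrays varied least, with a mean within-group variance of 0.0411 per tested probe set against 0.152 for control and 0.330 for WSD, and WSD+T replicates 1 and 3 correlated at r = 0.993 across tested probe sets.

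Fold changes below are differences of log2(signal + 16), a scale that understates changes at low signal, and adjusted p values are from limma with Benjamini-Hochberg adjustment over all 26383 probe sets whose mean was at or above the array's median. Of the 97 member probe sets, 90 passed this filter, for 60 genes. The 7 that did not were 1 probe set each of MRPL39, MRPL4, MRPL49, MRPL54, MRPS14, MRPS18B and MRPS5, with no signal above 35.4 on any array. For MRPL49 and MRPL54 this was the only probe set, so these 2 genes were not tested. Control means of the tested members ran from 28.4 to 2788, a range that does not rank the genes, because probe sets differ in how strongly they respond.

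The diet alone changed few of these probe sets. Against control, WSD raised 1 of the 90, for MRPL58, and lowered 2, for MRPS25 and MRPS24, at an adjusted p under 0.05. Across all tested probe sets 14.5% passed in either direction, 4.78% higher and 9.68% lower. Among the 6657 brighter tested probe sets, with a mean at or above the members' median mean (a signal of 587), 11.3% passed. The 3.33% of the members lay below this share as well. The 3.33% also covers members dimmer than that, so the 2 sets are not matched in signal. At an unadjusted p under 0.05 the count was 18 members (20%), against 31.1% of all tested probe sets.

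MRPL58, also known as ICT1, is a peptidyl-tRNA hydrolase built into the large subunit, where it frees stalled ribosomes. Its signals were 190.0, 160.3 and 183 on the control arrays, 498, 610.2 and 367 on the WSD arrays, and 258, 172 and 264 on the WSD+T arrays. Every WSD array lay above every control and every WSD+T array, while control and WSD+T overlapped. WSD was 2.57-fold higher than control, a log2 fold change of 1.36 (SE 0.22, n = 3 and 3 arrays, adjusted p = 0.00832 by limma). The change passed in each of the 18 other settings tried, with adjusted p values from 0.00477 to 0.0463 by limma. The WSD array with the lowest myeloid marker level, replicate 3, also had the lowest MRPL58 signal of its group, while the WSD+T arrays, all with a high myeloid level, gave 172 to 264. Without WSD replicate 3 the log2 fold change was 1.55. The part of myeloid cells in this difference was not tested.

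MRPS25 is a small-subunit protein found only in mitochondria. The probe set that fell read 392, 431 and 345 in control, 245, 174 and 259.6 in WSD, and 295, 343 and 310.1 in WSD+T. All WSD arrays lay below all others. The log2 fold change of WSD against control was -0.76 (SE 0.18, adjusted p = 0.0246 by limma), which is 1.69-fold lower. It no longer passed without control replicate 1 (adjusted p = 0.0618) or without control replicate 2 (0.0811, limma), and it passed in 12 of the 18 other settings. The other 3 tested probe sets of MRPS25 gave -0.56, -0.18 and -0.02, none of which passed, so the call rests on 1 of 4 probe sets for the gene.

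MRPS24 is the mitochondrial relative of the bacterial ribosomal protein that lines the path of messenger RNA into the small subunit. Its signals were 1016, 543 and 871 in control, 428, 347 and 453 in WSD, and 582, 667 and 450.5 in WSD+T. Control and WSD did not overlap, but control replicate 2 lay within the range of the WSD+T arrays. The log2 fold change of WSD against control was -0.92 (SE 0.25, adjusted p = 0.0424 by limma), or 1.89-fold lower. This call was the least stable of the 3: it passed in only 3 of the 18 other settings, with adjusted p values from 0.0260 to 0.151. Without WSD replicate 3 the log2 fold changes were -0.99 for MRPS24 and -0.86 for the MRPS25 probe set.

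**Figure D1:**
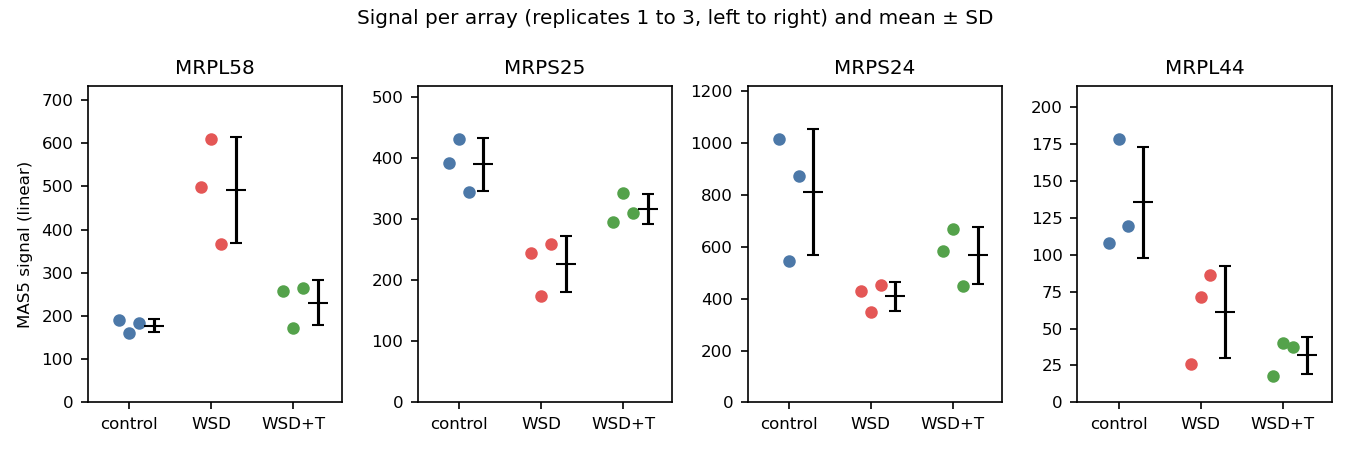
Linear MAS5 signal of 4 probe sets on each array (points, replicates 1 to 3 from left to right) with the group mean and SD (bars), n = 3 arrays per group. MRPL58 was highest on the 3 WSD arrays (367 to 610.2), the MRPS25 probe set was lowest there, MRPS24 on the WSD arrays lay below control but overlapped WSD+T, and the MRPL44 probe set fell to 17.7 to 40.5 in WSD+T without passing the test.

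The count of lowered members depended on single arrays. Without control replicate 1 it was 0. It was 1 without control replicate 2 or 3, WSD replicate 1 or any WSD+T array. It was 4 without WSD replicate 2 and 8 without WSD replicate 3, the array that stood furthest apart. The count over all 26383 tested probe sets moved too, from 2555 lower with all arrays. It was 1691 without control replicate 1, 2320 without WSD replicate 2 and 3695 without WSD replicate 3. In the fits with 1 lower member it was 1139 to 1898. The 8 members lower without WSD replicate 3 were probe sets of MRPS27, MRPL47, MRPS25, MRPS26, MRPL44 and MRPS24 and 2 of MRPL57, with MRPL58 again the only one higher. Without WSD replicate 2 the 4 lower were of MRPS22, MRPS25, MRPL17 and MRPL18, and a probe set of MRPS26 joined MRPL58 as higher. MRPS27, MRPS26, MRPL17 and MRPL18 were named after their values were seen.

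Most fitted changes were small. The median log2 fold change of the 90 members was -0.19 in WSD against control, beside -0.08 over all tested probe sets. Of the members 63 (70%) were below 0, against 57.2% of all. Among the 6657 brighter probe sets the median was -0.0012 and 50.2% were below 0. The 95% interval of the fold change lay within 2-fold either way for 82 members (91.1%). This was so for 77.8% of the 6657 brighter probe sets and 59.2% of all. The median SE was 0.18 for members and 0.21 over all. All 3 WSD arrays lay below all 3 control arrays for 16 members and above them for 4, where 20.2% and 10.6% of all tested probe sets did so. For 90 members the 16 are 17.8%, a share near that background.

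The shift of the median rested partly on 1 control array. The mean level of the 90 members, in log2 units around the mean of the 9 arrays, was 0.05, -0.01 and 0.23 on the control arrays, -0.11, -0.06 and -0.01 on the WSD arrays, and -0.05, 0.02 and -0.05 on the WSD+T arrays. Control replicate 3 was the highest of the 9, and control replicate 2 lay level with WSD replicate 3. Without control replicate 3 the members' median log2 fold change in WSD was -0.08, and that of all tested probe sets was also -0.08. The same array was also the highest of the 9 for respiratory chain subunits, at 0.25.

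**Figure D2:**
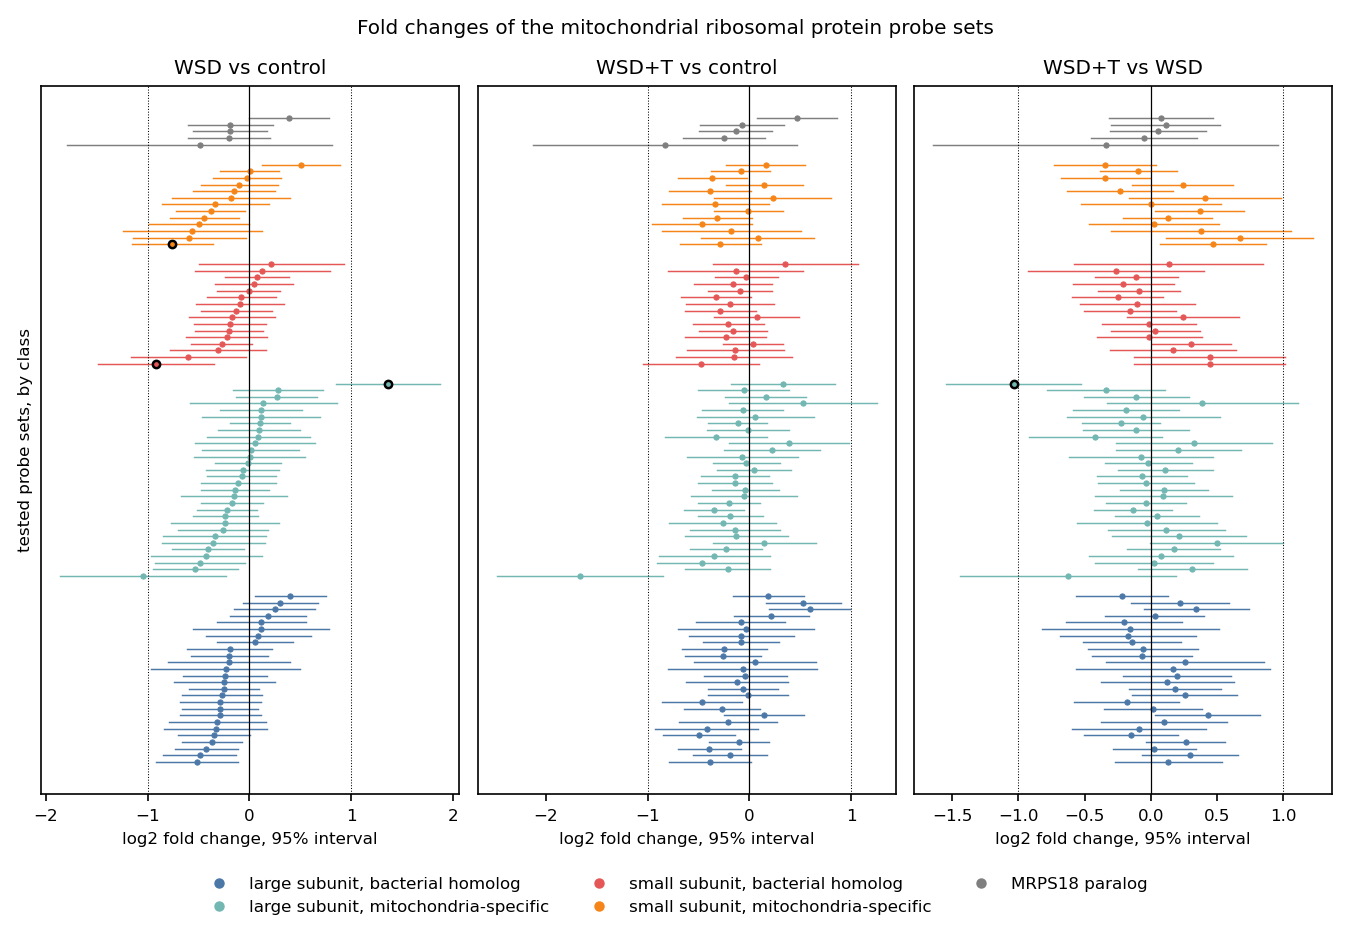
Log2 fold changes of the 90 tested member probe sets (points) with 95% intervals (lines) in the 3 comparisons, sorted within classes by WSD against control. Black rings mark calls and dotted lines mark 2-fold; in WSD against control 82 of the 90 intervals lie between the dotted lines, and MRPL58 lies alone on the right.

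With androgen added to the diet, none of the 90 members passed against control. Of all tested probe sets 1.97% passed. At an unadjusted p under 0.05 there were 10 members (11.1%), against 19.2% of all. The members' median log2 fold change was -0.12 beside -0.01 over all, with 68 of 90 (75.6%) below 0 against 51.2% of all. For 85 members (94.4%) the interval lay within 2-fold, against 68.4% of all. Among the 6657 brighter probe sets the median was -0.018, 53% were below 0 and 84.1% of intervals lay within 2-fold. WSD+T lay wholly below control for 22 members and wholly above for 3, where 18.0% and 18.8% of all tested probe sets did so. The 22 are 24.4% of the members. Without control replicate 3 the median was -0.03. Both comparisons use the same control arrays, so their shared direction is not fully independent. The fit pools the spread of all 3 groups. With only the control and WSD+T arrays, 1 member was higher (MRPL30) and 1 lower (MRPL44), where 1796 and 1449 of all 26383 tested probe sets were. With a weight per group 2 probe sets of MRPL30 were higher and 1 of MRPL44 was lower, where 1690 and 1577 of all were.

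WSD+T against WSD asks what androgen added to the diet. One member passed, MRPL58, which was 2.05-fold lower in WSD+T, a log2 fold change of -1.03 (SE 0.22, adjusted p = 0.0490 by limma). Of all tested probe sets 2.99% passed. The call held in 4 of the 18 other settings, with adjusted p values from 0.0235 to 0.180 by limma. Leaving out any array other than WSD replicate 3 ended it. Without any 1 of the WSD+T arrays at most 2 of all tested probe sets were lower, against 250 with all arrays. Against control, MRPL58 in WSD+T had a log2 fold change of 0.33 (95% interval -0.18 to 0.84, adjusted p = 0.457 by limma). The members' median was 0.03, beside 0.09 for all tested probe sets. Its sign turned under median centring (-0.10), under cyclic loess (-0.0035) and without WSD+T replicate 2 (-0.013). The median of all tested probe sets was -0.045, -0.0041 and 0.078 there. Without WSD replicate 3 the members' median was 0.07, beside 0.055 for all. All 3 WSD+T arrays lay above all WSD arrays for 11 members and below them for 4, where 17.5% and 10.9% of all tested probe sets did so.

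Medians were also taken by subunit and descent. In WSD against control they were -0.24 for the 26 probe sets of large-subunit proteins with bacterial relatives, -0.09 for the 30 of large-subunit proteins found only in mitochondria, -0.15 for the 16 of small-subunit proteins with bacterial relatives and -0.33 for the 13 of small-subunit proteins found only in mitochondria. The last class held 6 of the 18 members at an unadjusted p under 0.05 by limma. This is 46.2% of its 13 probe sets, beside 20% of all members and 31.1% of all tested probe sets. In WSD+T against control the same 4 medians were -0.09, -0.09, -0.16 and -0.18. The difference between classes was not tested.

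Among the large-subunit proteins with bacterial relatives none of the 26 probe sets passed in any comparison, and all 26 intervals in each lay within 2-fold. At an unadjusted p under 0.05 by limma there were 5 in WSD and 5 in WSD+T against control, and 1 in WSD+T against WSD. These were 19.2%, 19.2% and 3.85%, beside 31.1%, 19.2% and 20.9% of all tested probe sets. The stalk, which brings translation factors to the ribosome, was represented by MRPL12, which also binds the mitochondrial RNA polymerase, and by MRPL11 at the stalk's base. MRPL12 read 338, 272 and 374 in control, 336, 315 and 419.8 in WSD, and 265, 379 and 284 in WSD+T. MRPL11 read 955, 756 and 1283, then 1134, 834 and 1257, then 736, 1415 and 819 in the same order. The groups overlapped for both genes, with log2 fold changes in WSD against control of 0.12 each (SE 0.19 for MRPL12 and 0.29 for MRPL11). MRPL47, which lies near the exit of the tunnel for the new protein chain, averaged 2714 ± 244 (SD, n = 3) in control, 2251 ± 505 in WSD and 2995 ± 182 in WSD+T at its brighter probe set. MRPL28 averaged 162 ± 20.1, 179 ± 67.9 and 151 ± 10.8 in the same order of groups.

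The highest fitted values of that class were those of MRPL33 in WSD and of MRPL30 in WSD+T. MRPL33 read 1574, 1533 and 2101 in control, 2198, 2204 and 2428 in WSD, and 1868, 2033 and 1976 in WSD+T. All WSD arrays were above all control arrays, with a log2 fold change of 0.40 (SE 0.15, adjusted p = 0.114 by limma). MRPL30, named after its values were seen, has 2 probe sets. The brighter read 434, 568 and 459 in control, 649, 670.1 and 500.0 in WSD, and 709, 709 and 695 in WSD+T, and the other read 262, 386 and 294, then 372, 422 and 326, then 480.2, 506 and 442. On both, every WSD+T array lay above every control array. Their log2 fold changes in WSD+T against control were 0.53 (SE 0.16, adjusted p = 0.136) and 0.59 (SE 0.17, adjusted p = 0.124, limma).

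Lower values that missed the threshold also lay in this class, for genes named after their values were seen. MRPL18 had a log2 fold change in WSD of -0.49 (SE 0.16, adjusted p = 0.0726), MRPL17 one of -0.52 (SE 0.18, adjusted p = 0.0861) and the brighter probe set of MRPL2 one of -0.42 (SE 0.14, adjusted p = 0.0725, limma). In WSD+T against control the same 3 probe sets gave -0.19, -0.38 and -0.39, with adjusted p values of 0.549, 0.282 and 0.174. MRPL18 and MRPL2 in WSD lay wholly below control, whereas MRPL17 overlapped.

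MRPL44, a large-subunit protein found only in mitochondria with a fold like that of an RNA-cutting enzyme, showed how far probe sets of 1 gene could part. Its brightest probe set averaged 453 ± 157 (SD, n = 3) in control, 454 ± 58.4 in WSD and 576 ± 86.1 in WSD+T. Another, singled out after its values were seen, read 108, 178 and 119.6 in control, 25.9, 71.6 and 86.0 in WSD, and 17.7, 40.5 and 37.6 in WSD+T. On it control lay wholly above both other groups, with log2 fold changes of -1.04 in WSD (SE 0.36, adjusted p = 0.0868) and -1.67 in WSD+T (SE 0.36, adjusted p = 0.0546, limma). It passed in WSD+T against control without any 1 of the WSD arrays (adjusted p from 0.0296 to 0.0395). The other 4 probe sets of the gene gave between -0.24 and 0.14 in WSD and between -0.26 and 0.53 in WSD+T, none called.

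None of the remaining large-subunit proteins found only in mitochondria, apart from MRPL58, passed in any comparison. MRPL42, named after its values were seen, read 1059, 1000.3 and 1104 in control, 886, 789 and 543 in WSD, and 929, 887 and 900.1 in WSD+T. Both other groups lay wholly below control, with log2 fold changes of -0.53 in WSD (SE 0.18, adjusted p = 0.0863) and -0.22 in WSD+T (SE 0.18, adjusted p = 0.561, limma). MRPL50, a gene tied to ovarian insufficiency, read 872, 896 and 953 in control, 882, 985 and 1079.6 in WSD, and 798, 862 and 846 in WSD+T. WSD+T lay wholly below control, with a log2 fold change of -0.12 (SE 0.13, 95% interval -0.41 to 0.18). MRPL51 averaged 2458 ± 238 in control, 2085 ± 157 in WSD and 2156 ± 196 in WSD+T at its brightest probe set. MRPL57, at its brightest probe set, averaged 1334 ± 95.8, 1009.8 ± 161 and 1134 ± 98.8 in the same order, with a log2 fold change of -0.41 in WSD (SE 0.16, adjusted p = 0.115) and -0.23 in WSD+T (SE 0.16, adjusted p = 0.452, limma). MRPS30 at its brighter probe set gave 0.12 (SE 0.18) and -0.07 (SE 0.18).

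MRPL48 split by probe set. The brighter read 2533, 2648 and 3183 in control, 2379, 1489.9 and 2184 in WSD, and 1841, 2078 and 2119 in WSD+T, with log2 fold changes of -0.48 and -0.46 (SE 0.20 each, adjusted p = 0.131 and 0.246, limma). The dimmer averaged 320.2 ± 44.8, 397 ± 87.1 and 307 ± 34.6, which gave 0.28 and -0.05. Both other groups lay wholly below control on the brighter probe set, and neither did on the dimmer.

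In the small subunit, MRPS12 belongs to the decoding centre, MRPS7 lies in the head, and variants of MRPS16 cause mitochondrial disease of the newborn. MRPS7, also tied to ovarian insufficiency, read 566, 508 and 666 in control, 506, 552 and 581 in WSD, and 419.9, 511 and 441 in WSD+T. Its groups overlapped, with log2 fold changes of -0.08 (SE 0.15) in WSD and -0.33 (SE 0.15, adjusted p = 0.276 by limma) in WSD+T. The brightest MRPS12 probe set averaged 501 ± 158 in control, 391 ± 37.5 in WSD and 440.2 ± 29.5 in WSD+T. The 2 probe sets of MRPS16 gave 0.22 and 0.08 in WSD, and 0.35 and -0.03 in WSD+T. MRPS14 at its brighter tested probe set gave -0.20 and -0.16, and MRPS6, a dim probe set with a control mean of 56.7 ± 19.9, gave -0.60 (SE 0.25, adjusted p = 0.142 by limma) and -0.15.

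MRPS22 is a small-subunit protein found only in mitochondria, and its inherited loss has been tied to ovarian insufficiency. Its brighter probe set read 1490.4, 1769.8 and 1552 in control, 1467, 1154 and 1754 in WSD, and 1097, 1306 and 1274 in WSD+T. WSD overlapped control and WSD+T lay wholly below it, with log2 fold changes of -0.15 and -0.38 (SE 0.18 each, adjusted p = 0.588 and 0.28, limma). The other probe set read 326, 311 and 309, then 220.5, 285 and 215, then 332, 282 and 328. There the WSD arrays lay wholly below control (-0.38, SE 0.15, adjusted p = 0.119) and WSD+T overlapped control (-0.01, adjusted p = 0.978, limma). The probe sets thus placed the lower values in different groups, and neither difference passed.

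MRPS26, a small-subunit protein found only in mitochondria and named after its values were seen, had probe sets of opposite sign. The brighter read 1641, 1751 and 1369 in control, 2508, 1830.0 and 2468 in WSD, and 1764, 1659 and 1876 in WSD+T, a log2 fold change in WSD of 0.50 (SE 0.17, adjusted p = 0.0800 by limma). The other read 809.6, 727 and 953, then 541, 457 and 796, then 528, 661 and 597, a log2 fold change in WSD of -0.49 (SE 0.22, adjusted p = 0.159 by limma). MRPS33 averaged 2178 ± 447 in control, 2010.4 ± 66.0 in WSD and 2387 ± 246 in WSD+T. Control replicate 3, at 2694, was the highest of the 9 arrays for MRPS33.

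The paralogs MRPS18A, MRPS18B and MRPS18C descend from the same bacterial protein and occupy different places in the ribosome. At their brightest probe sets MRPS18A gave a log2 fold change of -0.19 in WSD and -0.14 in WSD+T, and MRPS18B -0.19 and -0.07. MRPS18C read 677, 579 and 725 in control, 787, 1065 and 776 in WSD, and 803, 976 and 977 in WSD+T. Both other groups lay wholly above control, with log2 fold changes of 0.39 (SE 0.17, adjusted p = 0.166) and 0.47 (SE 0.17, adjusted p = 0.201, limma). A dim probe set of the same gene, with a control mean of 84.6 ± 13.9, gave -0.49 and -0.83 with an SE of 0.57.

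Across the 22 genes with 2 or more tested probe sets, all probe sets of a gene had the same sign for 15 genes in WSD against control, 12 in WSD+T against control and 6 in WSD+T against WSD. Log2 fold changes of 1 gene's probe sets differed by over 0.5 for 6, 4 and 4 genes. The array annotation was not checked against probe sequences, and probe sets of a gene may read different transcripts. With 1 probe set per gene, the one of highest mean, 60 values remained, of which 1 was higher (MRPL58) and 1 lower (MRPS24) in WSD, with a median of -0.19.

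**Figure D3:**
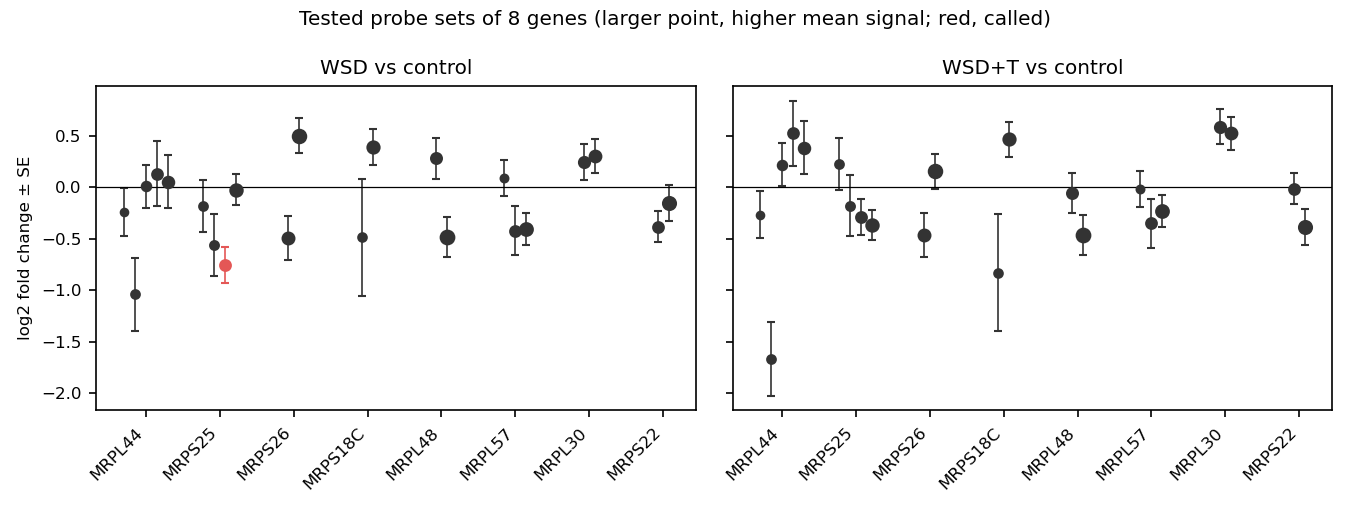
Log2 fold change ± SE of every tested probe set of 8 genes against control, in WSD (left) and WSD+T (right); point size grows with mean signal and red marks a call. The 5 probe sets of MRPL44 run from -1.04 to 0.14 in WSD, and those of MRPS26, MRPS18C and MRPL48 lie on both sides of 0.

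Several genes that serve the mitochondrial ribosome without being part of it were lower in WSD than in control. The share of probe sets called in either direction was 31.8% for mitochondrial tRNA synthetases, 21.4% for translation factors and 18.4% for assembly factors. Of all tested probe sets 14.5% were called. The synthetase share depended on the scaling. Under quantile normalization, median centring and cyclic loess 1, 2 and 1 of the 22 synthetase probe sets were lower. Of all 26383 probe sets 1963, 1679 and 1737 were lower there, against 2555 in the main fit. The translation factors had 5, 5 and 4 lower, and the assembly factors 5, 4 and 4. The difference from the ribosomal proteins was not tested. The tRNA synthetases of mitochondria, which charge tRNAs with amino acids, had 7 of 22 probe sets lower, none higher and a median of -0.45. LARS2, the leucine enzyme, fell from 221 ± 7.47 (SD, n = 3) in control to 90.7 ± 10.1 in WSD, a log2 fold change of -1.15 (SE 0.12, adjusted p = 0.00296 by limma). In WSD+T it read 166.9 ± 0.06, higher than in WSD by 0.78 (SE 0.12, adjusted p = 0.0274 by limma). The fall in WSD passed in all 18 other settings and the difference between WSD+T and WSD in 9. The latter was lost without WSD replicate 1 and without any 1 of the WSD+T arrays. In those fits at most 37 of all tested probe sets were higher, against 539 with all arrays, so these losses are not particular to LARS2. The same difference was also lost under quantile normalization and under median centring, where 304 and 204 of all were higher. The other synthetases lowered by WSD were those for glutamate (EARS2, on 2 of 3 probe sets) and arginine (RARS2, on 1 of 2). So were those for alanine (AARS2), histidine (HARS2) and serine (SARS2). The log2 fold changes of these calls ran from -0.85 for AARS2 to -0.44 for HARS2. These 6 calls were less stable than that of LARS2, passing in 1 (RARS2) to 6 (an EARS2 probe set) of the 18 other settings.

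Translation factors had 5 of 28 probe sets lower, 1 higher and a median of -0.30. The 5 lower belonged to 2 genes. Both probe sets of GFM2, which helps split ribosomes for recycling, fell, from 496 ± 67.4 to 241.0 ± 46.2 on the brighter (adjusted p = 0.0101 by limma) and by a log2 fold change of -1.01 on the other, and all 3 of MTRF1, a release factor relative, gave -1.10, -1.33 and -0.91. MTIF3, an initiation factor, was higher on 1 of its 3 probe sets at 1.48 (SE 0.41, adjusted p = 0.0454 by limma), a call lost in 14 of the 18 other settings. Both GFM2 calls passed in 17 of them, and those of MTRF1 in 16, 18 and 8.

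Assembly and rRNA modification factors had 6 of 38 probe sets lower, 1 higher and a median of -0.28. ERAL1, a chaperone of the small-subunit rRNA in which variants are also tied to ovarian failure, fell from 309 ± 13.5 to 165.8 ± 14.9, a log2 fold change of -0.84 (SE 0.13, adjusted p = 0.00658 by limma). RPUSD3, a pseudouridine synthase, gave -1.20 (SE 0.15, adjusted p = 0.0039), and METTL15, an rRNA methyltransferase, gave -1.56 (SE 0.23, adjusted p = 0.00621, limma). MRM1 on both probe sets and PNPT1 were the others lower, and GTPBP10 was higher at 0.74 (adjusted p = 0.0326). METTL15, 1 probe set each of MRM1 and MTRF1, and LARS2 were higher in WSD+T than in WSD, by 1.29, 1.00, 1.13 and 0.78. These calls passed in 8, 8, 7 and 9 of the 18 other settings, with the same direction throughout. All 4 were lost without WSD replicate 1 and without any 1 of the WSD+T arrays. In those fits at most 37 of all tested probe sets were higher, against 539 with all arrays. These losses on leaving out an array are therefore not particular to the 4 calls. All 4 were also lost under quantile normalization and under median centring, where 304 and 204 of all tested probe sets were higher. The fall of METTL15, ERAL1 and RPUSD3 in WSD passed in all 18, that of the MRM1 probe sets in 8 and 16, that of PNPT1 in 10, and the rise of GTPBP10 in 8.

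In WSD+T against control none of the tRNA synthetases, translation factors or assembly factors passed. Of their probe sets 5, 5 and 7 had an unadjusted p under 0.05 by limma. These were 22.7%, 17.9% and 18.4% of each list, near the 19.2% of all tested probe sets. Their medians were -0.18, -0.16 and -0.15. In the 18 other settings 0 to 3, 0 to 3 and 0 to 4 were lower, where 0 to 1577 of all tested probe sets were. Over the same settings the number lowered by WSD ran from 1 to 6 for the synthetases, 1 to 7 for the translation factors and 3 to 7 for the assembly factors. Of all tested probe sets WSD lowered 608 to 3695 in these settings. A further 4 proteins of the ribosome whose symbols fall outside the rule had 5 probe sets and no call; DAP3, of the small subunit, gave -0.23 (SE 0.12) in WSD and -0.28 (SE 0.12) in WSD+T.

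Markers of dividing cells were lower in both diet groups than in control. The mean level of 17 proliferation genes was 0.61, 0.85 and 0.57 on the control arrays, -0.28, -0.48 and -0.15 on the WSD arrays and -0.47, -0.22 and -0.42 on the WSD+T arrays, and of 30 probe sets WSD lowered 23 and WSD+T 16 against control, where 9.68% and 1.43% of all tested probe sets were lower. The 16 fell to 0 without WSD+T replicate 1 or 3, with these averaged and with a replicate block. In those settings 0 of all 26383 tested probe sets passed, or 1 higher and 2 lower with the block. These losses are therefore not particular to proliferation genes. The 16 fell to 4 without control replicate 2 or 3, to 8 without control replicate 1 and to 9 without WSD+T replicate 2. There 64 to 147 of all were lower, against 377 in the main fit. The count was 20 to 25 with array weights, with only the 2 groups compared and without WSD replicate 2 or 3. There 829 to 1577 of all were lower. The 23 in WSD fell to 7 with only the 2 groups compared, 8 with array weights and 9 without control replicate 2. They fell to 14 with a replicate block or without control replicate 3. In the same order 608, 909, 1139, 1484 and 1442 of all tested probe sets were lower, against 2555 in the main fit. The medians were -0.92 in WSD and -1.03 in WSD+T, and they stayed between -1.04 and -0.80, and between -1.13 and -1.01, over the 18 other settings. The mean level of 8 granulosa markers was 0.47, 0.83 and 0.82 in control, 0.07, -0.89 and 0.01 in WSD, and -0.52, -0.39 and -0.39 in WSD+T. The mitochondrial tRNA synthetases averaged 0.18, 0.24 and 0.31 in control, -0.20, -0.30 and -0.18 in WSD, and -0.02, -0.04 and 0.03 in WSD+T. The part of dividing or granulosa cells in the values of the mitochondrial lists was not tested.

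**Figure D4:**
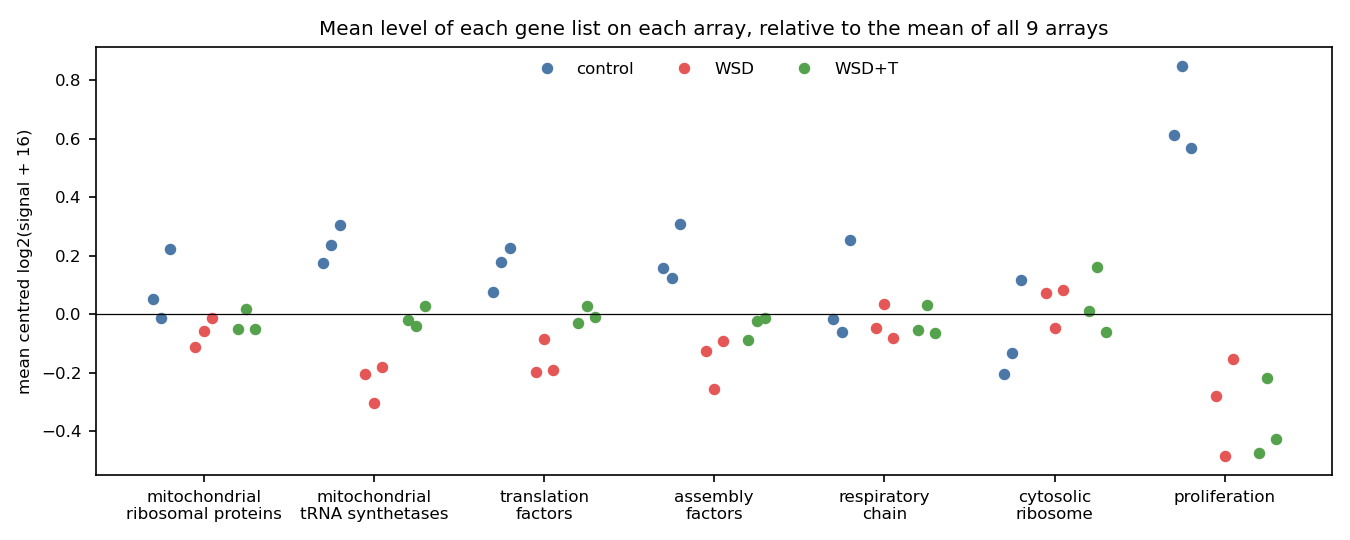
Mean level of each gene list on each array (points, replicates 1 to 3 from left to right in each group), as log2(signal + 16) centred on the mean of the 9 arrays, with 1 probe set per gene except for the 90 mitochondrial ribosomal protein probe sets. Among the 7 lists plotted, control arrays lie above WSD arrays by the widest gap for proliferation, and the ribosomal proteins range only from -0.11 to 0.23.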

How the data were processed

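Per the submitters' processing notes the authors computed each probe set's linear intensity with MAS5 (version not stated) from 1-colour Affymetrix arrays; per the labels, RNA was amplified with a NuGEN 3' protocol. The trimmed mean of each array (2% off each end) was 200.01, so the deposited intensities were already scaled, and no further normalization was applied. The genome build is not given in the sources used here. The 99 control probe sets were left out. Under R 4.3.3, limma 3.58.1 (lmFit, eBayes, 6 residual degrees of freedom) fitted one mean per group to log2(signal + 16) over the 9 arrays; figures used matplotlib 3.10.9. The code was tested on simulated data. The number of arrays limits the precision.

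All 97 Entrez IDs of the members were found, with the same symbol, in a RefSeq gene table. Members, lists and rules were chosen with earlier results of these data known. Genes named are called members, 16 chosen for their role or disease, those of highest and lowest control signal, and genes with several probe sets of which 1 is called; exceptions are marked. Replicate numbers did not pair the arrays: the residuals of the 9 same-numbered pairs correlated at -0.30 to 0.19, and 4 of 9 were over 0.1.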

Additional observations from a re-analysis of the deposited data

How the results depend on the processing

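Settings varied were the pseudocount (1), the filter, the scaling, the arrays in the fit, a block for the replicate number, weights per group, averaging of WSD+T replicates 1 and 3, which were most alike, and leaving out each array. For WSD against control, members lowered (2) became 1 without the filter, under cyclic loess and with WSD+T replicates 1 and 3 averaged. They became 0 under median centring, with only the 2 groups compared and with weights. Of all tested probe sets 1679, 608 and 909 were lower in the settings with 0, against 2555 in the main fit. The members' median became -0.11 under cyclic loess, where that of all tested probe sets was 0.0088. The members' median minus that of all was -0.117 there, against -0.106 in the main fit. Leaving out an array gave 1 to 2 higher, 0 to 8 lower and medians from -0.23 to -0.075 (the last without control replicate 3). In these fits 1139 to 3695 of all tested probe sets were lower. For WSD+T against control, 1 was higher and 1 lower with only the 2 groups compared, where 1796 and 1449 of all tested probe sets were. With weights 2 were higher and 1 lower, where 1690 and 1577 of all were. Leaving out an array gave 0 to 1 lower and medians from -0.19 to -0.034. For WSD+T against WSD, members lowered became 0 with pseudocount 1, without the filter, with only the 2 groups compared, with weights and with the averaging. The members' median became -0.10 under median centring, where that of all tested probe sets was -0.045. Leaving out an array gave 0 to 1 higher, 0 to 1 lower and medians from -0.013 to 0.07. The same settings were applied to the other gene lists after their values were seen.

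With the replicate number as a block, 1 member was higher and 1 lower in WSD, 0 in WSD+T against control, and 0 in WSD+T against WSD. Whether the numbers pair the arrays is not stated in the labels. The replicate block turned the lower calls from MRPS25 and MRPS24 to MRPL44. Of all calls in WSD against control 66.9% were lower, but 56.8% under quantile normalization, 52.0% under median centring and 50.3% under cyclic loess; in WSD+T against WSD these shares were 31.7%, 51.6%, 64.9% and 57.0%. No called member changed sign in any setting, and the causes of the lost calls were not tested. Members not above background on a group's arrays could not be told, because detection calls were not used here.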

Other observations

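The respiratory chain and ATP synthase, which receive the products of mitochondrial ribosomes, had 87 tested probe sets of nuclear genes for 57 genes, of which WSD raised 1 and lowered 3 against control, beside 14.5% of all tested probe sets called. NDUFS7, an iron-sulfur subunit of complex I, fell on 1 of its 2 tested probe sets, from 1344 ± 37.0 (SD, n = 3) to 680.0 ± 106.9. The log2 fold change there was -0.98 (SE 0.14, adjusted p = 0.00614 by limma). NDUFV3, also of complex I, gave -1.02 (SE 0.28, adjusted p = 0.0442, limma). On 1 of 2 tested probe sets each, ATP5IF1, the inhibitor of ATP synthase, gave -1.02 (SE 0.29, adjusted p = 0.0497) and COX7A2 rose by 0.61 (SE 0.17, adjusted p = 0.0493, limma). The NDUFS7 call passed in all 18 other settings and the other 3 in 2 to 4. None of the 87 passed in WSD+T against control by limma, where 8 (9.2%) had an unadjusted p under 0.05, against 19.2% of all tested probe sets. Cytosolic ribosomal proteins had 56 probe sets, of which WSD raised the 2 of RPS27L (1.59 and 1.57) and lowered 1 each of RPL26 (-0.51) and RPS10 (-0.48), with a median of 0.06. In WSD+T both RPS27L probe sets were lower than in WSD, by log2 fold changes of -1.25 and -1.03. The same RPL26 probe set, 1 of 2 tested, was higher by 0.58. In WSD the RPS27L calls passed in 17 and 18 of the other settings, RPL26 in 6 and RPS10 in 4; in WSD+T against WSD the RPS27L calls passed in 8 and 9 and RPL26 in 4.

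Of 25 probe sets for maintenance and transcription of mitochondrial DNA and its regulators, WSD lowered 3 and raised 1, a share of 16% beside the 14.5% of all tested probe sets. Over the 18 other settings 0 to 5 were lower and 0 to 1 higher, with 0 lower when control replicate 2 was left out, when only the 2 groups were compared and with array weights, and 5 lower when WSD replicate 3 was left out. Leaving out control replicate 3, or replicate 1 of either diet group, gave 1 lower. TEFM, the elongation factor of mitochondrial transcription, gave a log2 fold change of -0.87 (SE 0.18, adjusted p = 0.017), TWNK, the mitochondrial helicase, -0.88 (SE 0.23, adjusted p = 0.0391) and the transcription factor YY1, on 1 of its 4 probe sets, -0.66 (SE 0.16, adjusted p = 0.0261, limma). GABPB1, a subunit of a regulator of mitochondrial genes, was called on 1 of its 2 tested probe sets. There it averaged 311 ± 0.54 in control, 565 ± 149.5 in WSD and 241.5 ± 28.8 in WSD+T. Its log2 fold change was 0.80 in WSD against control (SE 0.19, adjusted p = 0.026) and -1.15 in WSD+T against WSD (SE 0.19, adjusted p = 0.0293, limma). The rise of GABPB1 in WSD passed in 12 of the 18 other settings, and its fall in WSD+T against WSD in 11. This fall was lost without WSD replicate 1 and without any 1 of the WSD+T arrays. In those fits at most 8 of all tested probe sets were lower, against 250 with all arrays, so the loss is not particular to GABPB1. In WSD, TEFM passed in 15 of the 18 other settings, YY1 in 8 and TWNK in 2.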
